A study of Mus musculus with 7 samples.

Results

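The vascular endothelial growth factor (VEGF) and angiopoietin system was followed through 10 genes, the ligands Vegfa, Vegfb, Vegfc, Pgf, Angpt1 and Angpt2 and the receptors Flt1, Kdr, Flt4 and Tek. They were picked by gene symbol, and all 10 were found among the 22447 genes of the deposited files. All 10 were also among the 14057 genes tested, those reaching 1 FPKM in 2 or more of the 7 libraries. The libraries were RNA sequencing of mouse lung in 3 groups, with 3 lung tumors of mice with EZH2 overexpression (OE tumor), 2 lungs labelled normal of mice with EZH2 overexpression (OE normal lung) and 2 lungs of wild type mice (WT lung). EZH2 catalyses histone methylation within the Polycomb complex PRC2. The sources used here do not give the age or strain of the mice, or the promoter and cell type of the overexpression. They do not say whether replicates were separate animals. Sex-linked genes, given below, place the 2 OE normal lungs in different animals, and tumor 1 in another animal than tumors 2 and 3. For the WT lungs, and between tumors 2 and 3, the spread behind the p-values may be technical. The source is named as lung tissue, but the growth text is about cultures of minced tumor nodules, and which of them gave the tumor RNA is not stated. FPKM (fragments per kilobase of transcript, scaled to the mapped fragments of the library) is a level per length, so genes can be compared with each other within a library.

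VEGF ligands are secreted proteins that act on receptor tyrosine kinases of endothelial cells. VEGF-A and placental growth factor (Pgf) bind VEGFR1 (Flt1), VEGF-A signals mainly through VEGFR2 (Kdr), and VEGF-C binds VEGFR3 (Flt4), the receptor of lymphatic endothelium. Angiopoietin 1, made by cells around vessels, activates Tie2 (Tek) and keeps vessels quiescent, whereas angiopoietin 2, made by endothelium, competes with it in many settings and loosens vessels. In the mouse lung Vegfa is made largely by alveolar epithelium, most of all by type 1 cells, and its receptors sit on the capillaries beneath it.

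Ezh2 was at 8.48 to 23.5 FPKM in OE tumors, 10.2 and 11.5 FPKM in OE normal lungs and 2.58 and 3.72 FPKM in WT lungs. By the spacing of low values, the other 6 libraries were 1.21 to 1.85 times as deep as tumor 1; the sources used here do not give read totals. Tumor 1 stood apart from tumors 2 and 3 (Pearson r of log2 values across genes 0.897 and 0.894, against 0.970 between tumors 2 and 3). By Xist and Eif2s3y tumors 2 and 3 and OE normal 2 were female and the other 4 libraries male. Results that rest on tumor 1 are therefore given with and without it. Without it, the comparison with WT lung sets female tumors against male lungs, so sex and tumor cannot be told apart there. The lung and epithelial factor Nkx2-1 was at 55.8 FPKM or more in all 7 libraries. Heart muscle genes were near 0 in tumors (summed level of 6 genes 2.82 to 4.56 FPKM) and at 603 to 1438 FPKM in the 4 normal lungs.

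In OE tumors all 4 receptors and the ligands Vegfa, Vegfc and Angpt1 were lower than in OE normal lung, and these genes together with Pgf were lower than in WT lung. In RNA of mixed cells, fewer cells of a type and less RNA per cell cannot be told apart. Tests were made with limma on log2(FPKM + 1), a scale that understates the change of low genes, with Benjamini-Hochberg adjustment over all genes tested and a threshold of 0.05. Against OE normal lung 7 members fell and 0 rose, where limma called 38.1% of all genes tested, 24.9% lower and 13.1% higher. Against WT lung 8 members fell and 0 rose, where 38.2% of all genes were called, 23.2% lower and 15.0% higher. All 3 tumors lay below both OE normal lungs for 8 members (35.9% of all genes) and below both WT lungs for 8 members (35.0% of all genes). The median log2 difference of the 10 members was -1.79 against OE normal lung and -2.13 against WT lung, beside -0.11 and -0.06 over all genes tested. Both comparisons use the same 3 tumors, so they do not stand as independent support of each other. Without tumor 1 the members gave 8 lower and 1 higher against OE normal lung, where limma then called 41.7% of all genes lower and 26.7% higher. Against WT lung they gave 9 lower and 1 higher, where 38.7% of all genes were lower and 28.4% higher. Of all calls against OE normal lung, 34.5% were higher with the values as deposited, 44.6% with median-of-ratios scaling, 18.2% after rescaling to TPM and 56.0% with quantile normalization. Against WT lung they were 39.4% as deposited and 54.7% with quantile normalization. The median log2 difference of all genes against OE normal lung was -0.33 after rescaling to TPM and 0.13 with quantile normalization. The member counts of 7 and 8 lower were the same under each of these scalings.

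**Figure D1:**
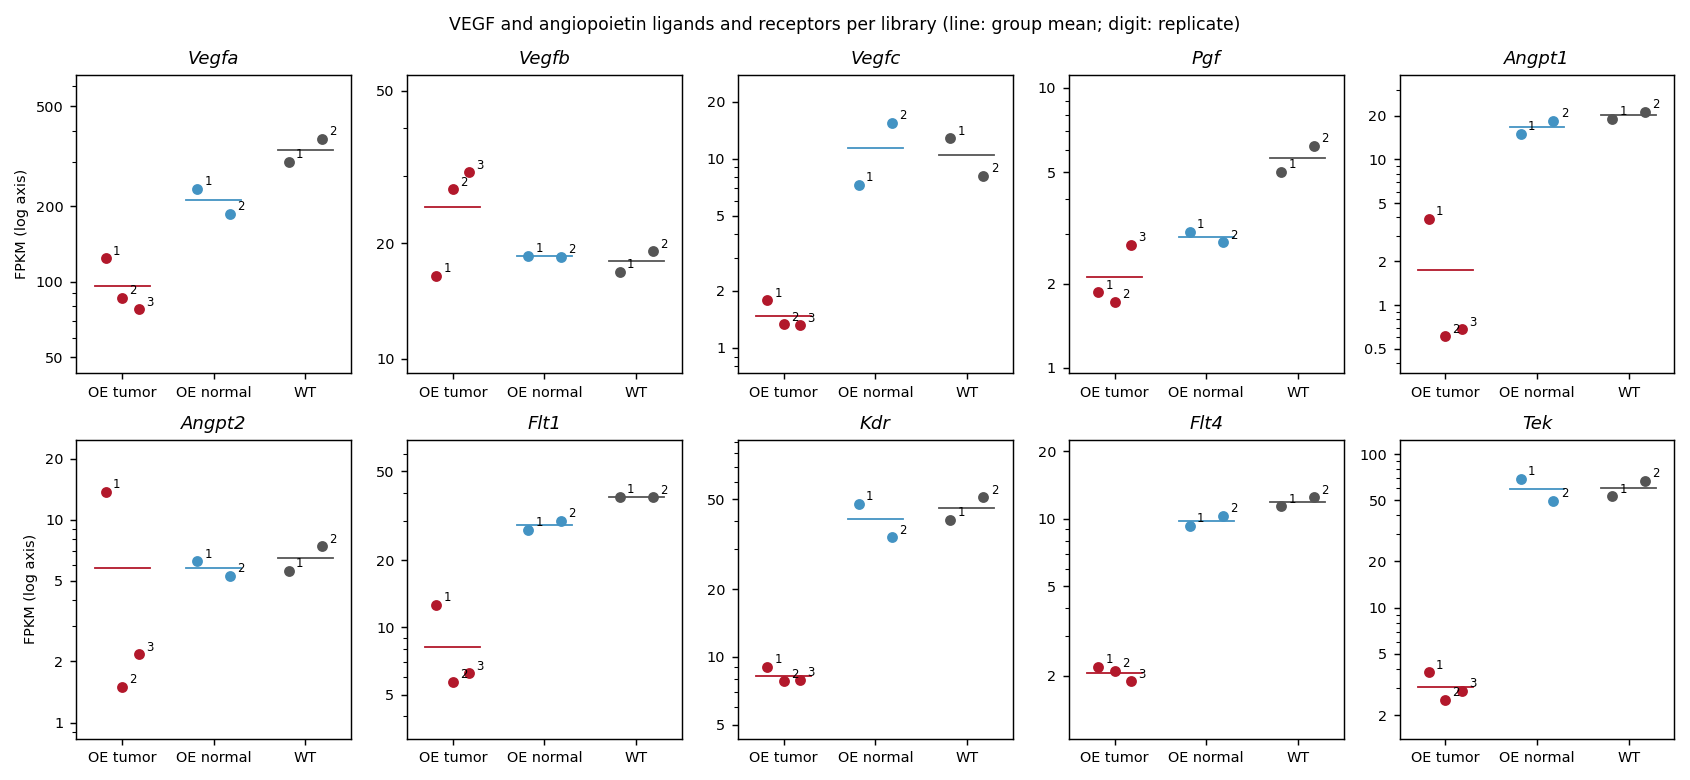
FPKM (vertical log axis) of each of the 10 genes in each library, in OE tumor, OE normal and WT lung from left to right; points are libraries, digits their replicate numbers and lines group means. All 4 receptors lie lower in every tumor than in every normal lung, while Angpt2 is at 13.7 FPKM in tumor 1 and at 1.497 and 2.17 FPKM in tumors 2 and 3.

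Vegfa, the main growth factor of the family, was at 124, 86.6 and 77.7 FPKM in OE tumors 1, 2 and 3, at 235 and 187 FPKM in OE normal lungs 1 and 2 and at 300.5 and 372 FPKM in WT lungs 1 and 2. The 3 groups did not overlap, with tumors lowest and WT lungs highest. The log2 difference was -1.15 (SE 0.24, limma adjusted p = 0.0123) against OE normal lung and -1.82 (SE 0.24, limma adjusted p = 0.00235) against WT lung. The call against OE normal lung was lost without OE normal 1 (log2 difference -0.98, limma adjusted p = 0.0874). Vegfa was the most abundant of the 10 genes in each of the 7 libraries and made up 67.5% to 76.7% of the summed level of the 6 ligands in tumors, 75.6% and 82.4% in OE normal lungs and 83.5% and 85.7% in WT lungs. Splice forms of Vegfa, which differ in how they bind matrix, are not separated by a level per gene.

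Vegfb, a VEGFR1 ligand linked to fat and heart metabolism, passed the test in neither comparison. It was at 16.5, 27.6 and 30.6 FPKM in tumors 1, 2 and 3, against 18.6 and 18.4 FPKM in OE normal lungs and 16.9 and 19.1 FPKM in WT lungs. Tumors 2 and 3 lay above all normal lungs and tumor 1 below them. The log2 difference was 0.36 against OE normal lung (95% interval -0.27 to 1.00, limma adjusted p = 0.307) and 0.41 against WT lung (95% interval -0.23 to 1.04, limma adjusted p = 0.258). Without tumor 1 it was 0.63 (limma adjusted p = 0.00222) and 0.67 (limma adjusted p = 0.00181), the latter between female tumors and male lungs. With all 7 libraries and sex as a covariate it was 0.29 and 0.11.

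Vegfc, the lymphatic growth factor, was at 1.78, 1.33 and 1.32 FPKM in tumors, against 7.28 and 15.5 FPKM in OE normal lungs and 12.8 and 8.11 FPKM in WT lungs. All tumors were below all normal lungs, and the 2 normal groups overlapped. The log2 difference was -2.24 (SE 0.33, limma adjusted p = 0.00346) against OE normal lung and -2.18 (SE 0.33, limma adjusted p = 0.00388) against WT lung. Pgf, which shares VEGFR1 with VEGF-A, was at 1.86, 1.72 and 2.75 FPKM in tumors, against 3.06 and 2.81 FPKM in OE normal lungs and 5.01 and 6.19 FPKM in WT lungs. It was lower in tumors than in WT lung (log2 difference -1.09 with SE 0.19, limma adjusted p = 0.00601). This call was lost without WT 2 (-0.96, limma adjusted p = 0.0593). Against OE normal lung its log2 difference was -0.35 (95% interval -0.81 to 0.10, limma adjusted p = 0.183), and it turned to 0.21 with quantile normalization.

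Among the receptors Tek, which encodes the angiopoietin receptor Tie2, was the member with the lowest mean of all 3 tumors relative to normal lung. It was at 3.79, 2.53 and 2.87 FPKM in tumors 1, 2 and 3, against 68.8 and 49.9 FPKM in OE normal lungs and 53.2 and 67.1 FPKM in WT lungs. The group means of tumors were 0.0516 times that of OE normal lung and 0.0509 times that of WT lung. The fitted log2 differences were -3.89 (SE 0.21, limma adjusted p = 0.000274) and -3.92 (SE 0.21, limma adjusted p = 0.000216). The rank by FPKM rested on tumor 1. In tumors 2 and 3 Angpt1, at 0.610 and 0.683 FPKM against a mean of 16.7 FPKM in OE normal lung, was relatively lower than Tek. On log2(FPKM + 1) the difference from OE normal lung without tumor 1 was -4.01 for Tek and -3.42 for Angpt1.

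Kdr, the main signaling receptor of VEGF-A, was at 9.01, 7.80 and 7.93 FPKM in tumors, against 47.9 and 34.0 FPKM in OE normal lungs and 40.6 and 51.1 FPKM in WT lungs. The tumors lay within a narrow band, mean 8.25 ± 0.668 FPKM (SD, n = 3), and below every normal lung. The log2 difference was -2.16 (SE 0.19, limma adjusted p = 0.000559) against OE normal lung and -2.33 (SE 0.19, limma adjusted p = 0.000432) against WT lung. Flt1, whose product binds VEGF-A tightly with weak kinase signaling and also exists as a soluble form not separated here, was at 12.6, 5.70 and 6.23 FPKM in tumors, against 27.3 and 30.0 FPKM in OE normal lungs and 38.4 and 38.3 FPKM in WT lungs. Tumor 1 had the highest Flt1 of the tumors, still below all normal lungs. Its log2 difference was -1.77 (SE 0.31, limma adjusted p = 0.00644) against OE normal lung and -2.17 (SE 0.31, limma adjusted p = 0.00311) against WT lung. The first call was lost without OE normal 2 (-1.70, limma adjusted p = 0.0514). Flt4, the VEGF-C receptor, was at 2.20, 2.11 and 1.88 FPKM in tumors, against 9.32 and 10.3 FPKM in OE normal lungs and 11.4 and 12.5 FPKM in WT lungs. Its log2 differences were -1.82 (SE 0.13, limma adjusted p = 0.00034) and -2.08 (SE 0.13, limma adjusted p = 0.00024). Its product is found on lymphatic endothelium and on some blood capillaries.

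**Figure D2:**
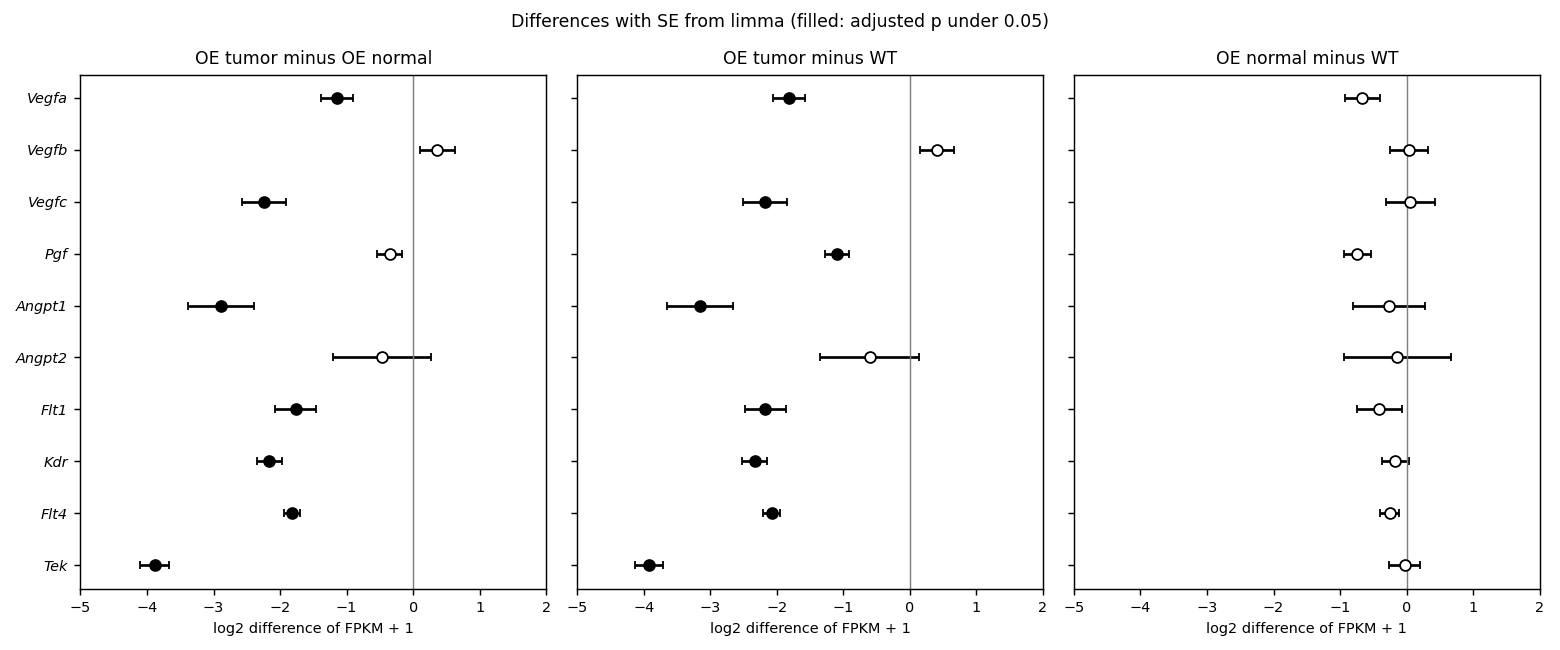
Log2 difference of FPKM + 1 (horizontal axis) of each gene with its SE from limma, for OE tumor minus OE normal lung, OE tumor minus WT lung and OE normal minus WT lung; filled points have an adjusted p under 0.05. Tek lies farthest to the left in both tumor panels, at -3.89 and -3.92, and no gene is filled in the panel of OE normal minus WT lung.

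Promoters are shown for Tek, for Kdr and for Vegfa, the gene of the main Kdr ligand. Tek was the member with the lowest mean of all 3 tumors relative to normal lung. Promoters were read because PRC2 is known to act at mammalian promoters rich in cytosine-guanine pairs (CG). The windows hold 250 bases before and 50 bases after a gene start, from RefSeq on GRCm38.p6, a later build than that of the expression files, and capitals mark each CG. They lie at chr4:94739039-94739338 on the plus strand for Tek, chr5:75978406-75978705 on the minus strand for Kdr and chr17:46032328-46032627 on the minus strand for Vegfa, the upstream one of its 2 starts in the table.
Tek: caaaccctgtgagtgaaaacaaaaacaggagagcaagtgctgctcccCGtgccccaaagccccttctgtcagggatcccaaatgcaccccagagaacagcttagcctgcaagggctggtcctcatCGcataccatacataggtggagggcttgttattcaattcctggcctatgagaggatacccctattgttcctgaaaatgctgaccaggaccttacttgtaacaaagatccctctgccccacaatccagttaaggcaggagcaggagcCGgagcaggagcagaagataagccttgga
Kdr: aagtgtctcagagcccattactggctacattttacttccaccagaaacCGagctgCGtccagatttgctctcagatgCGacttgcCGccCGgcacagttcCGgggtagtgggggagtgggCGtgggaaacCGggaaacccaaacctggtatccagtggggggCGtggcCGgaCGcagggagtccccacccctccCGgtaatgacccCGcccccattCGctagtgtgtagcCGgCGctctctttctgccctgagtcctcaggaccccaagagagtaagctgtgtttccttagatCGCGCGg
Vegfa: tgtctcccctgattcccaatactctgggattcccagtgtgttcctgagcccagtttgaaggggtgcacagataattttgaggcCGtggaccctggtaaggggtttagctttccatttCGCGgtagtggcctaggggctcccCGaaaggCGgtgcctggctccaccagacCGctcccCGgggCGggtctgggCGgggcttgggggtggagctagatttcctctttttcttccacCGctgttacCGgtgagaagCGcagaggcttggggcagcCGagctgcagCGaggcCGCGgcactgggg
CG occurred 3 times in the Tek window, 19 times in that of Kdr and 16 times in that of Vegfa, with 29 in Flt1 and 26 in Flt4. Over 32851 promoter windows of the same length the median was 7, with quartiles of 3 and 20, so Tek lay at the lower quartile and Kdr, Flt1, Flt4 and Vegfa lay on either side of the upper quartile, all above the median. The core letters ACGTG of a hypoxia response element, searched on both strands, were in 0 of the windows of the 4 receptors and in 19.6% of all windows. The related GCGTG was found 2 times in Kdr and 1 time in Flt1, and in 32.4% of all windows. Neither was in the Vegfa window printed, while the window of its other start held 1 ACGTG and 1 GCGTG. The core GGAA of ETS factors, which drive endothelial genes, was found on either strand 2 times in Tek, 5 in Kdr, 4 in Flt1 and 2 in Flt4, and in 96.0% of all windows. These matches describe the letters of the windows and no binding was measured. Windows were found for 8 of the 10 members, and not for Angpt1 and Angpt2.

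Of the angiopoietin genes, Angpt1 fell in both comparisons and Angpt2 passed the test in neither. Angpt1, the agonist of Tie2, was at 3.93, 0.610 and 0.683 FPKM in tumors 1, 2 and 3, against 15.0 and 18.4 FPKM in OE normal lungs and 19.0 and 21.3 FPKM in WT lungs. All tumors lay below all normal lungs, with tumor 1 above the other tumors. The log2 difference was -2.89 (SE 0.49, limma adjusted p = 0.00582) against OE normal lung and -3.15 (SE 0.49, limma adjusted p = 0.0044) against WT lung. Angpt2, its competitor, was at 13.7, 1.497 and 2.17 FPKM in tumors 1, 2 and 3, against 6.22 and 5.30 FPKM in OE normal lungs and 5.60 and 7.38 FPKM in WT lungs. Tumor 1 lay above every normal lung and tumors 2 and 3 below every one. The mean FPKM of tumors over that of OE normal lung was 1.01, while the log2 difference was -0.47 (95% interval -2.26 to 1.33, limma adjusted p = 0.645). Against WT lung it was -0.61 (95% interval -2.40 to 1.19, limma adjusted p = 0.548). Without tumor 1 Angpt2 was lower, by -1.26 (limma adjusted p = 0.00202) and -1.40 (limma adjusted p = 0.00143), the latter between female tumors and male lungs. With all 7 libraries and sex as a covariate its log2 difference was -0.22 against OE normal lung and 0.36 against WT lung. Tumor 1 also had the highest summed level of 7 fibroblast genes of the tumors, 382 FPKM against 73.1 and 98.8 FPKM in tumors 2 and 3. For 10 pericyte and smooth muscle genes the sum was 425 FPKM against 106 and 131 FPKM. Acta2, named after its values were seen, made up 313, 26.8 and 36.9 FPKM of the latter sum in tumors 1, 2 and 3. Of the other genes in it, Rgs5 and Myh11 were lowest in tumor 1, Notch3 was in between and the rest were highest there. The part of fibroblasts, pericytes and smooth muscle cells in the difference between tumors was not tested.

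The ratio of the angiopoietins varied less among tumors than their levels. Angpt2 over Angpt1 was 3.50, 2.45 and 3.17 in tumors 1, 2 and 3, against 0.414 and 0.289 in OE normal lungs and 0.294 and 0.347 in WT lungs. Angpt2 exceeded Angpt1 in each tumor and was below it in each normal lung. Tek over Angpt1 was 0.965, 4.14 and 4.21 in tumors, against 4.58 and 2.72 in OE normal lungs and 2.80 and 3.16 in WT lungs, so that tumor 1 was low and the groups overlapped. Tek over Angpt2 was 0.276 to 1.69 in tumors, against 9.40 and 11.1 in OE normal lungs and 9.09 and 9.51 in WT lungs. Ratios of 2 FPKM values within a library do not depend on how that library was scaled, and they were not tested because the members were chosen with results known.

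Set against each other in each library, receptors were lower relative to ligands in tumors. The 4 receptors summed to 27.6, 18.1 and 18.9 FPKM in tumors, against 153 and 124 FPKM in OE normal lungs and 144 and 169 FPKM in WT lungs. The 6 ligands summed to 162, 119 and 115 FPKM in tumors, against 285 and 247 FPKM in OE normal lungs and 360 and 434 FPKM in WT lungs. Receptors over ligands thus came to 0.171, 0.152 and 0.164 in tumors, 0.537 and 0.502 in OE normal lungs and 0.399 and 0.390 in WT lungs, and the groups were apart from each other. Kdr over Vegfa was 0.0726, 0.0901 and 0.102 in tumors, 0.204 and 0.182 in OE normal lungs and 0.135 and 0.137 in WT lungs, again with the groups apart and OE normal lung highest. Flt1 over Vegfa was 0.0659 to 0.102 in tumors, 0.116 and 0.161 in OE normal lungs and 0.128 and 0.103 in WT lungs, and the highest tumor at 0.102 lay just under the lower WT lung at 0.103. Flt4 over its ligand gene Vegfc overlapped between groups, at 1.23 to 1.58 in tumors, 1.28 and 0.667 in OE normal lungs and 0.887 and 1.54 in WT lungs.

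**Figure D3:**
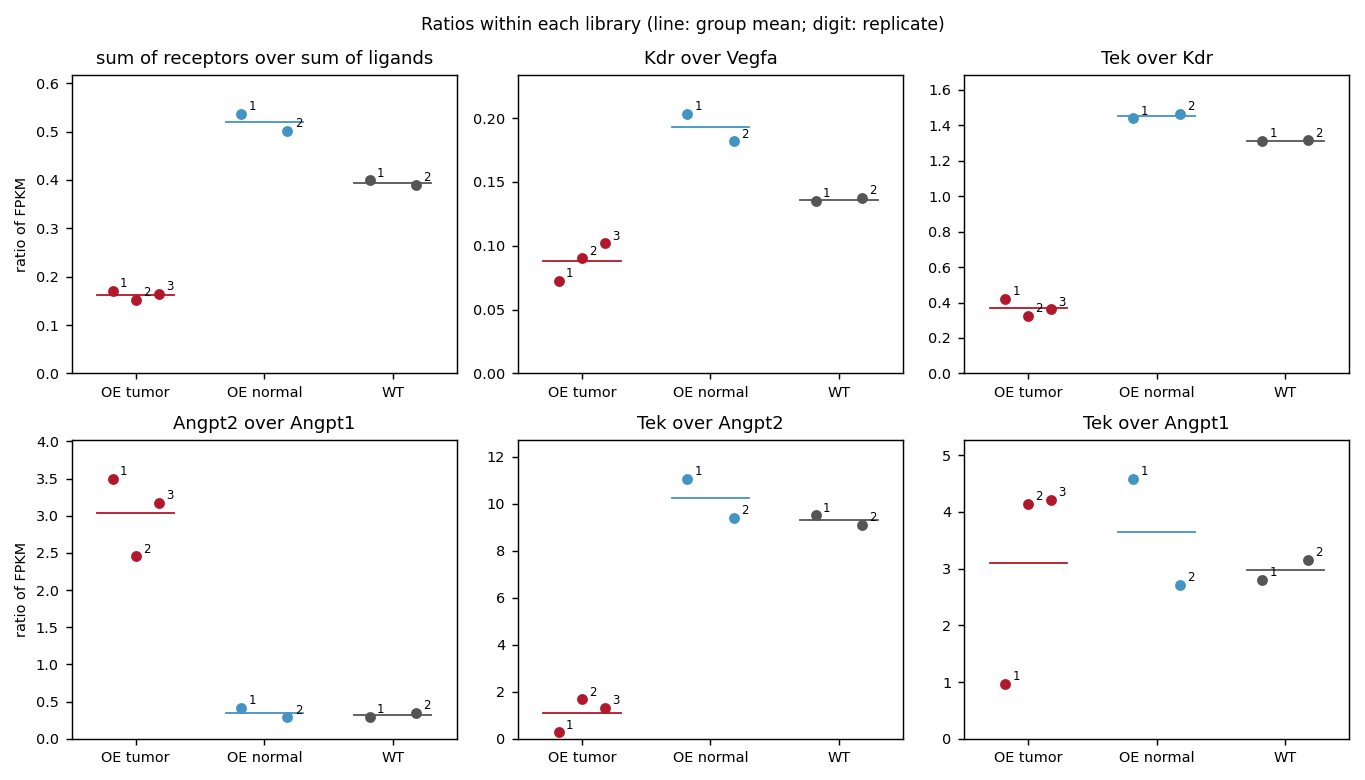
Ratios of FPKM values within each library (vertical axes from 0) for OE tumor, OE normal and WT lung from left to right; points are libraries, digits replicate numbers and lines group means. Receptors over ligands and Tek over Kdr are lower in every tumor than in every normal lung, Angpt2 over Angpt1 is higher in every tumor, and Tek over Angpt1 overlaps.

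Within the receptor sum the share of Tek was lower in tumors. Tek made up 13.7% to 15.2% of the summed receptor level in tumors, against 44.9% and 40.1% in OE normal lungs and 37.1% and 39.7% in WT lungs. It was the most abundant receptor of each normal lung. Kdr and Flt1 were the most abundant receptors in tumors, Flt1 leading in tumor 1 (45.7% of the sum, Kdr 32.6%) and Kdr in tumors 2 and 3 (43.0% and 41.9%). Tek over Kdr was 0.421, 0.324 and 0.363 in tumors, 1.44 and 1.47 in OE normal lungs and 1.31 in each WT lung. Flt4 over Kdr, at 0.238 to 0.270 in tumors, 0.195 and 0.303 in OE normal lungs and 0.244 and 0.280 in WT lungs, overlapped.

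The receptors were then set beside other genes of endothelium, to show how they stood among them. All 14 endothelial genes fell against OE normal lung and against WT lung (median log2 difference -2.64 and -2.92). Their summed level was 229.5 to 270.2 FPKM in tumors, against 1833 and 1943 FPKM in OE normal lungs and 2228 and 2582 FPKM in WT lungs; none was listed at 0. The drops ranged from the junction gene Cldn5 (log2 difference -5.55 against OE normal lung), Ramp2 (-4.16), an adrenomedullin receptor partner, the adhesion gene Icam2 (-4.05) and the sphingosine phosphate receptor S1pr1 (-3.64) to Esam at -1.15 (named after its value was seen), and the 4 receptors lay within that range. Relative to the endothelial sum, Tek was lower in tumors, at 1.08% to 1.40%, against 3.54% and 2.72% in OE normal lungs and 2.39% and 2.60% in WT lungs. The 3 VEGF receptors were higher relative to this sum, though not relative to each gene in it. Kdr was at 2.98% to 3.40% of the sum in tumors, against 2.46% and 1.85% in OE normal lungs and 1.82% and 1.98% in WT lungs. Flt1 was at 4.68%, 2.49% and 2.34% in tumors, against 1.40% and 1.64% in OE normal lungs and 1.72% and 1.48% in WT lungs. Flt4 was at 0.709% to 0.917% in tumors, against 0.480% and 0.562% in OE normal lungs and 0.510% and 0.484% in WT lungs. With the cadherin gene Cdh5 in place of the sum, Tek was again lower in each tumor (0.151 to 0.160, against 0.359 and 0.354 in OE normal and 0.307 and 0.338 in WT lungs) and Kdr higher (0.380 to 0.466, against 0.250 and 0.241 in OE normal and 0.234 and 0.257 in WT lungs). Over the sialomucin gene Emcn in its place, Kdr was lower in each tumor, at 0.484 to 0.544, against 1.28 and 0.913 in OE normal and 1.25 and 1.44 in WT lungs. Of the 14 endothelial genes taken singly as the denominator, Kdr was higher in all tumors than in all 4 normal lungs for 7, lower for 4 (Emcn, Esam, Robo4 and Cd34) and overlapping for 3. The counts for Flt4 were also 7, 4 and 3, and for Flt1 they were 8, 1 and 5. Tek was higher for 1 gene (Cldn5), lower for 10 and overlapping for 3. These denominators were chosen after seeing the data.

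Most markers of endothelial subtypes fell. Of 8 capillary genes 6 fell and 1 rose against OE normal lung (median -2.11), and 7 fell and 1 rose against WT lung (median -2.74). The genes that fell included Fibin (-3.35), Cd93 (-2.48), an endothelial lectin receptor, and Gpihbp1 (-2.36), which holds lipoprotein lipase on capillaries. The gene that rose was Apln, which encodes the secreted peptide apelin. It was at 158, 73.0 and 91.2 FPKM in tumors, against 6.08 and 9.20 FPKM in OE normal lungs and 16.8 and 17.0 FPKM in WT lungs (limma adjusted p = 0.000741 and 0.00254). Which cells of the tumors made Apln was not tested. All 3 lymphatic genes tested of 5 fell in both comparisons (median -2.32 and -1.81). The hyaluronan receptor gene Lyve1 was at 1.21 to 2.97 FPKM in tumors, against 72.5 and 133 FPKM in OE normal lungs and 192 and 177 FPKM in WT lungs, and Mmrn1 (-2.32) and Sema3d (-1.37) also fell. The lymphatic regulator Prox1, named after its values were seen, was below the expression minimum. Of 10 pericyte and smooth muscle genes, the perivascular source of Angpt1 among other cells, 5 fell and 1 rose in both comparisons (median -0.70 and -1.10). Cnn1 (-3.40), Myh11 (-3.19) and Tagln (-1.48) were lower than in OE normal lung. Further genes were named after their values were seen. Notch3 (-1.465) and Cspg4 (-0.87) also fell, while Acta2 (-0.53), Pdgfrb (-0.24), Kcnj8 (-0.10) and Abcc9 (-0.08) did not pass against OE normal lung. The pericyte regulator Rgs5 was higher, at 29.1 to 32.3 FPKM in tumors, against 6.90 and 4.60 FPKM in OE normal lungs and 1.99 and 2.72 FPKM in WT lungs. Of 7 fibroblast genes, Tcf21 and Pdgfra fell in both comparisons (median -0.93 and -0.60), where 24.9% and 23.2% of all genes tested were called lower. Without tumor 1 there were 5 that fell against OE normal lung and 5 against WT lung. In those fits 41.7% and 38.7% of all genes were called lower. The part of a changed cell makeup in the drop of the members was not tested.

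Epithelial genes, markers of the main source of Vegfa in lung, differed by cell type. Of 10 general epithelial genes 6 rose against OE normal lung and 0 fell (median 1.00), and 6 rose and 1 fell against WT lung (median 0.62). Epcam, a general epithelial adhesion molecule, was at 114 to 131 FPKM in tumors, against 24.7 and 20.1 FPKM in OE normal lungs and 29.4 and 24.5 FPKM in WT lungs. Nkx2-1 (1.76), the splicing factor Esrp1 (1.63) and Krt18 (1.60) rose as well. Of 9 alveolar type 2 genes 7 rose in both comparisons (median 1.70 and 1.61), among them Sftpd (2.34), Sftpb (2.33), Lpcat1 (2.28) and Slc34a2 (2.16). Sftpc, the best known type 2 gene and not on the list, was listed at 0 in tumors 2 and 3 and at 35940 FPKM in tumor 1, against 10580 to 15910 FPKM in the 4 normal lungs. Sftpb was at 6954 and 6779 FPKM in tumors 2 and 3, and whether the listed 0 means absent Sftpc RNA was not tested. Of 8 alveolar type 1 genes 6 fell and 1 rose against OE normal lung (median -2.27), and 6 fell and 0 rose against WT lung (median -2.90), with Spock2 (-4.02), Clic5 (-3.90), Rtkn2 (-2.86) and Hopx (-2.30) lower. Vegfa thus fell beside type 1 genes and against the direction of the general and type 2 genes. The summed level of the type 1 list was 746 to 1335 FPKM in tumors, against 1931 and 1644 FPKM in OE normal lungs and 2691 and 2999 FPKM in WT lungs, in the same order of groups as Vegfa. Among tumors the order was the other way, with tumor 1 lowest in this sum (746 FPKM, against 1335 and 1220 FPKM in tumors 2 and 3) and highest in Vegfa. Ager made up much of the sum in tumors (306, 975 and 857 FPKM) and passed in neither comparison. Aqp5 was the type 1 gene that rose against OE normal lung. Ager, Hopx and Emp2 were lowest in tumor 1, while Aqp5, Rtkn2, Clic5, Akap5 and Spock2 were highest there, as was Vegfa. Ager, Aqp5, Emp2 and Akap5 were named after their values were seen. The part of type 1 cells in the level of Vegfa was not tested. Of 8 macrophage genes Cd14 (1.58) and Trem2 (1.42) rose against OE normal lung (median 0.28) and 4 rose against WT lung (median 0.98). Of all genes tested 13.1% and 15.0% were called higher. Without tumor 1, 2 macrophage genes rose and 2 fell against OE normal lung, where 26.7% of all genes were called higher and 41.7% lower. All 6 heart muscle genes fell in both comparisons (median -6.59 and -6.45), led by Myl7 (-7.70), Actc1 (-7.09), Myl4 (-6.64) and Tnnt2 (-6.54), and Myl7 was listed at 0 in tumor 2. Of 4 platelet genes 3 fell and Pf4 rose against OE normal lung (median -2.17). Ppbp (-3.47), Gp9 (-2.28) and Itga2b (-2.06) were lower, and Gp9 was listed at 0 in tumors 1 and 2. Against WT lung Pf4 rose and 0 fell (median -1.46).

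**Figure D4:**
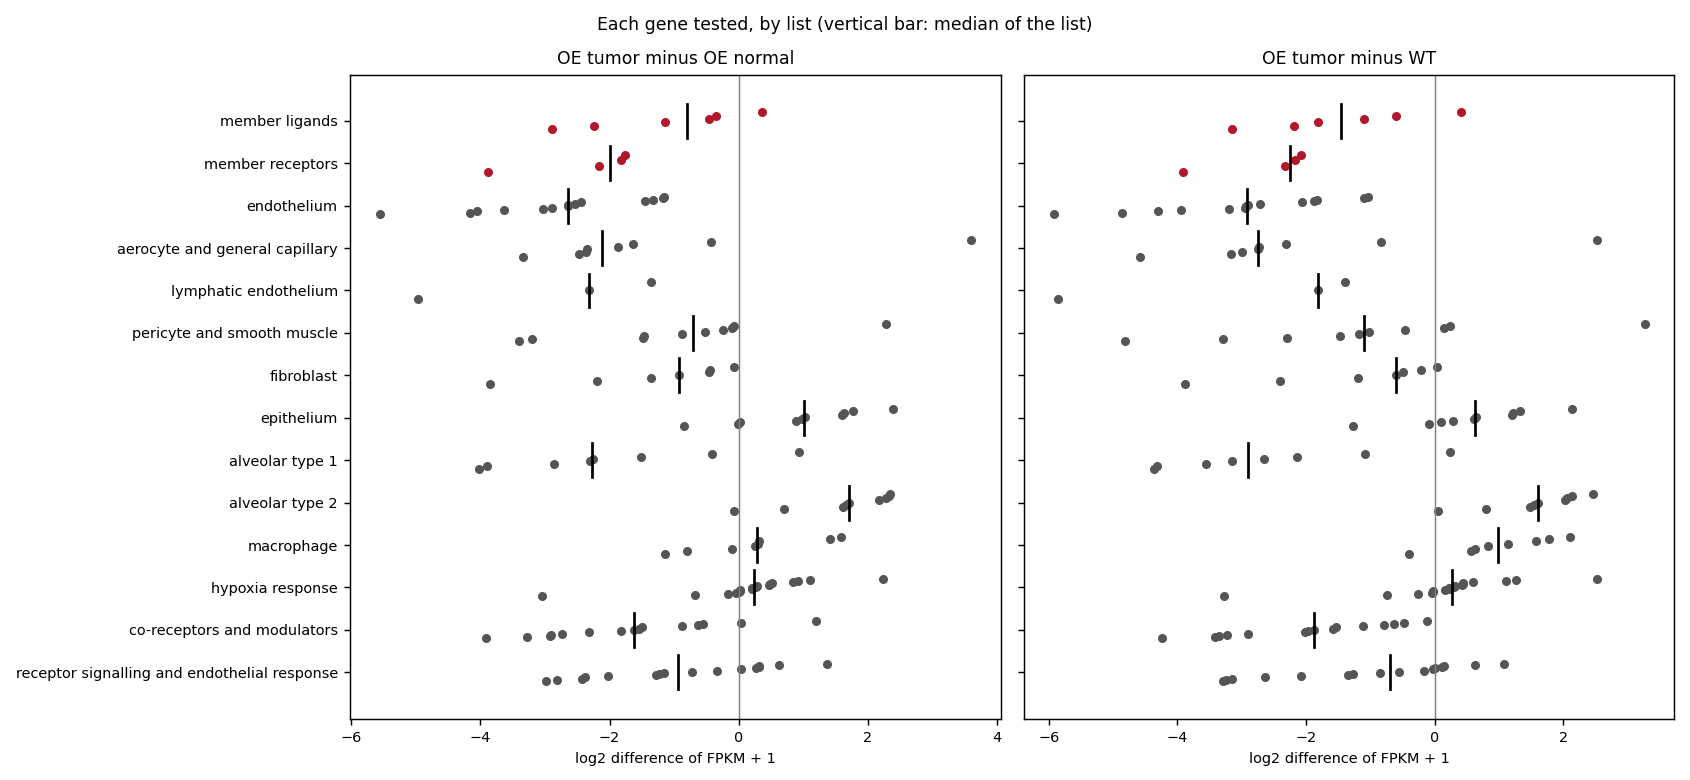
Log2 difference of FPKM + 1 (horizontal axis) of each gene tested, by list from top to bottom, for OE tumor minus OE normal lung and OE tumor minus WT lung; points are genes, red for the 10 members, and vertical bars are list medians. The receptors lie within the range of the endothelial genes, and Apln and Rgs5 are the points far to the right in the capillary and the pericyte lists.

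The wider pathway was read from genes that modify these receptors. Of 15 co-receptors and modulators tested of 17, 10 fell and 0 rose against OE normal lung (median -1.62), and 11 fell and 0 rose against WT lung (median -1.88). Sema3g, a semaphorin of arterial endothelium, was at 2.13 to 2.38 FPKM in tumors, against 56.0 and 42.1 FPKM in OE normal lungs and 60.0 and 62.1 FPKM in WT lungs (limma adjusted p = 0.000175 and 0.000114). The Tie2 phosphatase gene Ptprb (-3.27), the plexin ligand gene Sema3e (-2.93) and Figf (-2.91), which encodes VEGF-D, fell too. Tie1, the partner of Tie2 and picked after its values were seen, was at 9.96, 9.004 and 9.79 FPKM in tumors, against 82.3 and 58.2 FPKM in OE normal lungs and 72.5 and 84.0 FPKM in WT lungs. Tie1 over Tek was 2.63 to 3.57 in tumors, against 1.20 and 1.17 in OE normal lungs and 1.36 and 1.25 in WT lungs, so Tie1 exceeded Tek in every library and by more in tumors. The 5 genes that did not pass against OE normal lung were Nrp1, Nrp2, Plxna1, Sema3f and Esm1, named after their values were seen. Nrp1, the co-receptor that raises VEGF-A binding to VEGFR2 and is also made by non-endothelial cells, was at 83.4, 45.6 and 39.4 FPKM in tumors, against 58.1 and 46.1 FPKM in OE normal lungs and 52.7 and 63.4 FPKM in WT lungs (log2 difference 0.04 with a 95% interval of -0.75 to 0.83 against OE normal lung).

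Downstream genes of the receptors and of endothelial responses gave 9 lower and 1 higher of 16 against OE normal lung (median -0.94). Against WT lung they gave 7 lower and 1 higher (median -0.70). Of all genes tested 24.9% and 23.2% were called lower and 13.1% and 15.0% higher. Without tumor 1 the counts were 10 lower and 3 higher, and 9 lower and 1 higher. In those fits 41.7% and 38.7% of all genes were called lower and 26.7% and 28.4% higher. The flow-induced factor Klf2 was at 10.7 to 13.2 FPKM in tumors, against 72.8 and 142 FPKM in OE normal lungs and 128 and 117 FPKM in WT lungs. Rasip1 (-2.82), a junction regulator, the Notch target Hey1 (-2.43) and the nuclear receptor Nr4a1 (-2.38) were lower than in OE normal lung. The gene that rose, named after its values were seen, was Rcan1, a calcineurin regulator induced by VEGF in endothelium, at 63.7, 48.7 and 46.5 FPKM in tumors, against 19.1 and 20.6 FPKM in OE normal lungs and 21.7 and 27.0 FPKM in WT lungs (limma adjusted p = 0.00221 and 0.00504). Plcg1, which encodes the phospholipase that VEGFR2 activates and was named after its values were seen, had a log2 difference of 0.03 against OE normal lung (limma adjusted p = 0.911).

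Among hypoxia response genes, which include the best known inducers and co-targets of Vegfa, more rose than fell, but 11 were not called in each comparison. Of 18 tested, 6 rose and 1 fell against OE normal lung (median 0.24), and 6 rose and 1 fell against WT lung (median 0.27); without tumor 1 these were 10 and 1, and 11 and 2, in fits where the share of all genes called higher was 26.7% in place of 13.1% and 28.4% in place of 15.0%. Hif1a, the oxygen-regulated subunit of HIF, was at 27.9, 36.9 and 36.6 FPKM in tumors, against 15.8 and 18.8 FPKM in OE normal lungs and 15.7 and 14.5 FPKM in WT lungs (limma adjusted p = 0.00682 and 0.00357). The HIF prolyl hydroxylase gene Egln3 was at 2.79, 13.9 and 16.0 FPKM in tumors, against 1.00 and 1.18 FPKM in OE normal lungs and 0.708 and 0.731 FPKM in WT lungs (limma adjusted p = 0.0349 and 0.0238), and Ankrd37 (1.11) rose as well. The gene that fell was Epas1, which encodes the HIF subunit abundant in endothelium and alveolar cells, at 47.4, 54.8 and 56.5 FPKM in tumors, against 485 and 407 FPKM in OE normal lungs and 481 and 560 FPKM in WT lungs (limma adjusted p = 0.000252 and 0.000163).

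Between OE normal lung and WT lung limma called 0 of the 10 members and 0 of all genes (0%), with 1208 genes (8.59%) at an unadjusted p under 0.05. Vegfa and Pgf were the members at an unadjusted p under 0.05, each lower in OE normal lung, beside 2.47% of all genes lower at that p. The Vegfa mean of OE normal lung was 0.628 times that of WT lung (log2 difference -0.67 with SE 0.26, limma adjusted p = 0.551). For Pgf it was 0.524 times that of WT lung (log2 difference -0.74 with SE 0.20, limma adjusted p = 0.334). The OE normal lungs did not overlap the WT lungs for 5 members, all lower (Vegfa, Pgf, Angpt1, Flt1 and Flt4), beside 23.1% of all genes. The 95% intervals were widest for Angpt2 (-2.11 to 1.83) and Angpt1 (-1.58 to 1.05). Then came those of Vegfc (-0.82 to 0.94), Flt1 (-1.235 to 0.416) and Vegfb (-0.65 to 0.73). The intervals were from -0.59 to 0.54 for Tek and from -0.67 to 0.33 for Kdr. Without tumor 1, which narrows the shared estimate of the spread, limma called 290 genes (2.06%) and 0 members, with adjusted p = 0.101 for Vegfa and 0.108 for Pgf.

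The order of levels within a group differed between tumor and normal lung. In tumors Vegfa (mean 96.2 FPKM) and Vegfb (24.9 FPKM) led, and from Kdr and Flt1 (8.25 and 8.19 FPKM) down to Vegfc (1.48 FPKM) each gene overlapped its neighbour in the order. In OE normal lung the order was Vegfa, Tek, Kdr, Flt1, Vegfb, Angpt1, Vegfc, Flt4, Angpt2 and Pgf, where Angpt1 and Vegfc, and Vegfc and Flt4, overlapped. WT lung differed from that order in the places of Vegfb, Angpt1, Vegfc and Flt4, which overlapped in part, with Angpt1 and Vegfb, Flt4 and Vegfc, and Angpt2 and Pgf overlapping.

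Genes most like each member across the 7 libraries were ranked by Pearson r on log2(FPKM + 1) among 10675 genes with a group mean of at least 5 FPKM, as a description that is dominated by the gap between tumors and normal lung. Tek was most like Ppp1r16b (r = 0.9997), Hyal1 and Sox17 (0.9995 each), the last a transcription factor of arterial endothelium at 1.61 to 2.48 FPKM in tumors, against 21.5 and 16.6 FPKM in OE normal lungs and 17.1 and 19.7 FPKM in WT lungs. Kdr was most like Adcy5, Bmp6 and Wscd1 (0.9994, 0.999 and 0.9989), Flt1 like Gm20605, Gtf2a2 and Pdp1 (0.9991, 0.9989 and 0.9987), and Flt4 like Wnt2, Nipal3 and Tmem2 (0.9991, 0.9988 and 0.9987). Angpt1 was most like Figf (0.9995), the VEGF-D gene, which was at 5.03, 0.979 and 0.965 FPKM in tumors, against 19.2 and 21.8 FPKM in OE normal lungs and 23.5 and 28.6 FPKM in WT lungs, and then like Tfpi and Fam174b (0.9994 and 0.9987). Vegfa was most like Ppp1r13b, Dock9 and Elovl5 (0.9971, 0.9943 and 0.9939), and Vegfc like the ciliary dynein gene Dnaic1 (0.9965), Birc2 and Dll1 (0.9952 and 0.9934). Angpt2 was most like Gorasp1, Mfap5 and Rnf186 (0.9892, 0.9882 and 0.9851), Vegfb like Crat, Rogdi and Atp6v1f (0.9913, 0.9902 and 0.9898), and Pgf like Tspyl2, Lrrfip2 and Notch1 (0.9656, 0.9648 and 0.9616).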

How the data were processed

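Each of the 7 libraries had 1 deposited table of 22474 gene symbols with FPKM values. Per the submitters' processing notes the tools were TopHat2, TopHat and Cufflinks 2.0.0, with the build mm9. The sources used here do not give the annotation, strand setting or read totals, so depth is known only relative to tumor 1, from the ratio most low values shared between libraries. A date stood in place of the symbol in 27 rows per table, which were dropped. Values were used as log2(FPKM + 1) without further scaling, for genes that reached 1 FPKM in 2 or more libraries. The 2-sided limma test (version 3.58.1, R 4.3.3, eBayes with trend) shared 1 estimate of the spread over all 3 groups, and was run on simulated data. The simulated noise was normal with an equal spread in all libraries, so it does not cover an outlying library such as tumor 1. The 10 members and the lists of co-receptors, receptor signaling, hypoxia response and cell markers were chosen with earlier results of these data known. Named list genes were the 4 with the largest absolute log2 difference among calls with non-overlapping groups against OE normal lung, with exceptions marked where named, and similar genes the 3 with the highest Pearson r. Alternatives were a pseudocount of 0.1, other filters and scalings, no trend, a fit to 2 groups alone, a replicate block, each library left out in turn, and, after seeing the data, sex as a covariate and the lists without tumor 1. Promoter windows came from RefSeq on GRCm38.p6 and no expression coordinate was used. Python 3.11.15 and matplotlib 3.10.9 were used for ratios and figures.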

Additional observations from a re-analysis of the deposited data

How the results depend on the processing

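Refits of the 7 called differences against OE normal lung stayed called 116 times and lost the call 3 times, and refits of the 8 against WT lung stayed called 135 times and lost it 1 time. These refits are not independent. Other filters, no trend, 2 groups alone or leaving out a library of the third group keep the log2 difference and change only its SE and p-value. The losses were Vegfa without OE normal 1 (limma adjusted p = 0.0874), Flt1 without OE normal 2 (0.0514), Pgf without WT 2 (0.0593) and Vegfa under the replicate block (0.0578), which changed no other call of a member. Replicate numbers share no stated litter or day, and deviations of same-numbered libraries correlated at -0.029 to 0.034. Tumor 1 and OE normal 1 were both male, and tumor 2 and OE normal 2 both female. These values cannot tell whether a tumor and a normal lung came from the same mouse, so pairing was not settled. Tumor 3 is the only library with number 3, so the replicate block also takes it out of the comparison. Its log2 differences equal those of the fit without tumor 3 (against OE normal lung Vegfa -1.01 and Tek -3.86 in both). A change of calls under the block can therefore not be read as an effect of pairing. With the replicate block limma called 3130 genes against OE normal lung and 2999 against WT lung, in place of 5350 and 5371, and 1 between OE normal and WT lung, and with a single library left out 2996 to 9620, 2445 to 9438 and 0 to 290, with 0 to 1 members higher in each tumor comparison. The extremes were reached without OE normal 2 and WT 2 at the low end and without tumor 1 at the high end. Between OE normal and WT lung limma called 1 gene with a pseudocount of 0.1, 2 with no filter, 3 with only those groups and 1 with sex as a covariate. Of differences not called, Pgf against OE normal lung turned to 0.21 with quantile normalization, Angpt2 against OE normal lung ranged from -1.26 to 0.018 with a library left out, and Angpt2 against WT lung was 0.36 with sex as a covariate. Between OE normal and WT lung median-of-ratios scaling turned Vegfb to -0.02 and Vegfc to -0.001, Tek turned to 0.10 after rescaling to TPM and 0.023 with quantile normalization, and sex as a covariate turned Vegfb to -0.18, Vegfc to -0.081, Angpt1 to 0.13, Angpt2 to 0.59 and Tek to 0.18. With a library left out these ranged from -0.44 to 0.55 for Vegfc, -0.41 to 0.07 for Kdr, -0.26 to 0.20 for Tek, -0.041 to 0.13 for Vegfb and -0.31 to 0.033 for Angpt2. The cause was not tested. Where a group was left with 1 library, it was assumed to vary like the others. Depth limits low values such as Angpt1 in tumors 2 and 3, and no interval on counts can be given without read totals.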
